A study of Rattus norvegicus with 16 samples.

Results

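Ing3, Cped1, Wnt16 and Fam3c are 4 genes that follow one another in this order on rat chromosome 4, a segment whose human counterpart is one of the best-known loci for bone mineral density. On the array they were taken as all probe sets whose single gene symbol was one of these names, which gave 4 of 14217 named genes and 5 of 31099 probe sets: 1 each for Cped1, Wnt16 and Fam3c, and 2 for Ing3. RNA from the upper part of the femur, which carries the femoral neck, was measured in rats aged 4 weeks, with 4 arrays for each of 4 inbred strains: Fischer 344 (F344), Lewis (LEW), Copenhagen 2331 (COP) and Dark Agouti (DA). No treatment, sex or engineered allele was given for any strain. Whether replicates came from separate animals was not given either, so the tests weigh strain differences only against the variation among these samples, which may be technical. The study follows a chromosome 4 trait locus found in F2 rats of F344 and LEW.

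Wnt proteins are secreted ligands that bind Frizzled and Lrp receptors on bone cells, and signalling through beta-catenin promotes bone formation. Wnt16 is made by cells of the osteoblast lineage, is known above all for its effect on cortical bone, and restrains the formation of osteoclasts. Cped1, for cadherin-like and PC-esterase domain containing, is a gene of little-known function that lies next to it. Fam3c encodes a secreted cytokine-like protein that has been linked to osteoblast differentiation, and Ing3 a subunit of the NuA4/TIP60 histone acetyltransferase complex that binds methylated histone tails.

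The signal of a probe set is its brightness on a linear scale, in arbitrary units. Of these genes, Cped1 separated one strain from the others, with a mean signal in COP that was 2.47-fold that of the other 12 arrays. Those 12 averaged 274, where array medians were 303 to 325, so the ratio sets COP against low signals. The mean log2 signal of Cped1 stood at the 51.5th percentile of all probe sets. Cped1 had only 1 probe set, so no second one could be compared, and its probe sequences were not available here. Fam3c and the brighter Ing3 probe set were measured well above the filter level and varied less, with the highest strain mean 1.23-fold and 1.20-fold the lowest. The other Ing3 probe set was under the filter, with a ratio of 1.42. Wnt16 was dim in every strain. Between F344 and LEW none of the 3 probe sets that passed the filter (a mean log2 signal at or above that of a signal of 174) was called by limma at an adjusted p under 0.05 over all kept probe sets, and 1 had an unadjusted p under 0.05, against a background of 13.8% of 18625 probe sets called. Limma likewise called 0 of the 3 between F344 and DA (2 at an unadjusted p under 0.05, background 16.1%) and 0 between LEW and DA (0 unadjusted, background 10.4%). The plot of the signals of all 5 probe sets shows every array.

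**Figure D1:**
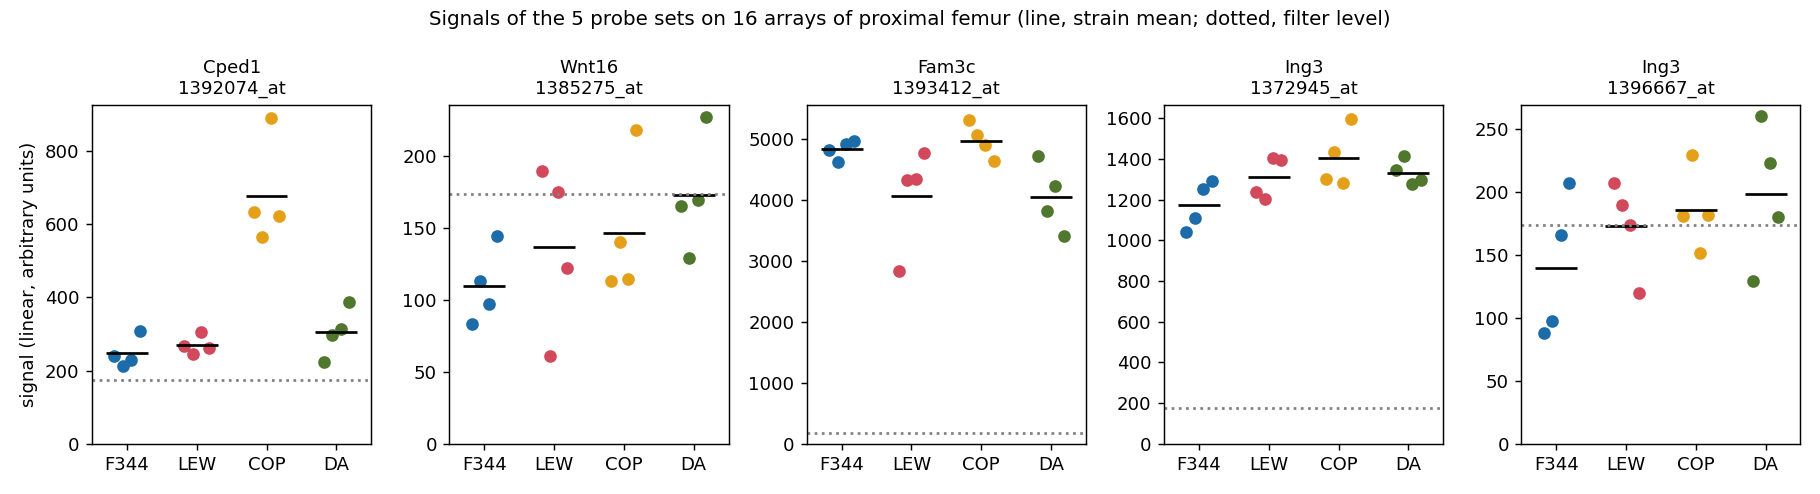
Signal on a linear scale (vertical axis, arbitrary units, starting at 0) on each of 16 arrays by strain (horizontal axis) for the 5 probe sets of Cped1, Wnt16, Fam3c and Ing3; points are arrays, black lines are strain means of 4 arrays and the dotted line is the filter level of 174. The 4 COP points of Cped1 lie between 564 and 891, above all other Cped1 points, while the strains overlap for Wnt16 and for both Ing3 probe sets.

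The sequences before the transcription start of Cped1, the gene that differed, and of Wnt16, the ligand next to it, are shown here for reference. They are the 250 bases before the start in RefSeq's annotation of the GRCr8 assembly, a genome of the BN strain and of none of the 4 strains measured. All 4 genes had an entry. Capitals mark matches, on either strand, to 4 motifs: the TATA box core TATAAA, the CCAAT box CCAAT, the GC box GGGCGG and the core TCF/LEF site CTTTGA of the Wnt pathway's nuclear factors.
Cped1 (chr4:51482247-51482496, plus strand): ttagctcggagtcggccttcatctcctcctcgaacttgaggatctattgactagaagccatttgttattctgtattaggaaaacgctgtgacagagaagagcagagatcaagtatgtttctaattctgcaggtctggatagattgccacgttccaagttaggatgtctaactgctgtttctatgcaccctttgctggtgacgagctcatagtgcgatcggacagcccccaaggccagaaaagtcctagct
Wnt16 (chr4:51786478-51786727, plus strand): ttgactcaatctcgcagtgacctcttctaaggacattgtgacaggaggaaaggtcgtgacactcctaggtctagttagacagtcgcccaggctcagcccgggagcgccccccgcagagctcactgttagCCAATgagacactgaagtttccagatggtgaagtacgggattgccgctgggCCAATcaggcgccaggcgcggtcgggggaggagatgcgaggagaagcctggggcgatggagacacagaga

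The Cped1 window held no match to any of the 4 motifs. The Wnt16 window held the CCAAT box at 2 places, with first bases 121 and 70 bases before the start. Among 27457 rat promoters of the same length, 34.3% held the CCAAT box, 32.4% the GC box, 13.8% the TCF/LEF core and 13.1% the TATA box core. The windows also differed in CpG dinucleotides, with 8 in Cped1, 14 in Wnt16, 20 in Ing3 and 31 in Fam3c, where the median of all promoters was 6. These are descriptions of the reference sequence.

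Cped1 (probe set 1392074_at) signals in COP were 634, 564, 891 and 623 in replicates 1 to 4. In F344 they were 240, 213, 230 and 308, in LEW 268, 244, 307 and 262, and in DA 222, 297, 315 and 388. The lowest COP array thus lay 1.45-fold above the highest array of the other strains, and F344, LEW and DA overlapped one another. No overlap was seen in 25.1% of all probe sets tested between F344 and COP, in 17.4% between LEW and COP and in 16.4% between COP and DA. Strain means were 678 ± 145 in COP, 306 ± 68.3 in DA, 270 ± 26.4 in LEW and 248 ± 41.8 in F344 (SD, n = 4).

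The strain F-test of limma called Cped1 (adjusted p = 5.40e-06), as it did 31.2% of all probe sets tested. COP was higher than F344 by a 2.72-fold ratio, or -1.44 as F344 minus COP on the log2 scale (SE 0.176, limma adjusted p = 4.23e-06), where 19.9% of probe sets were called. Against LEW the ratio was 2.48-fold, or -1.31 as LEW minus COP (SE 0.176, limma adjusted p = 1.66e-05), with 13.7% of probe sets called. Against DA it was 2.23-fold, or 1.16 as COP minus DA (SE 0.176, limma adjusted p = 1.09e-04), with 11.9% called. All 3 contrasts use the same 4 COP arrays. The direction and the call of each held in the 24 alternatives that gave a value, leaving out single arrays included.

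In the order of Cped1 signals, DA, LEW and F344 were neighbours that did not differ beyond their spread. The log2 difference was -0.13 for F344 minus LEW (95% interval -0.50 to 0.23, limma adjusted p = 0.687), -0.29 for F344 minus DA (-0.66 to 0.08, limma adjusted p = 0.293) and -0.16 for LEW minus DA (-0.52 to 0.21, limma adjusted p = 0.662). For the parents of the cross, F344 and LEW, the interval thus holds differences of up to 0.50 on the log2 scale, so equal signals are not shown. Leaving out 1 array moved these values to between -0.24 and -0.07, -0.43 and -0.16, and -0.30 and -0.03, with no call; the ends came without F344 replicate 4 and without F344 replicate 2 or LEW replicate 3 for F344 minus LEW, and without DA replicate 1 and DA replicate 4 for both DA contrasts.

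**Figure D2:**
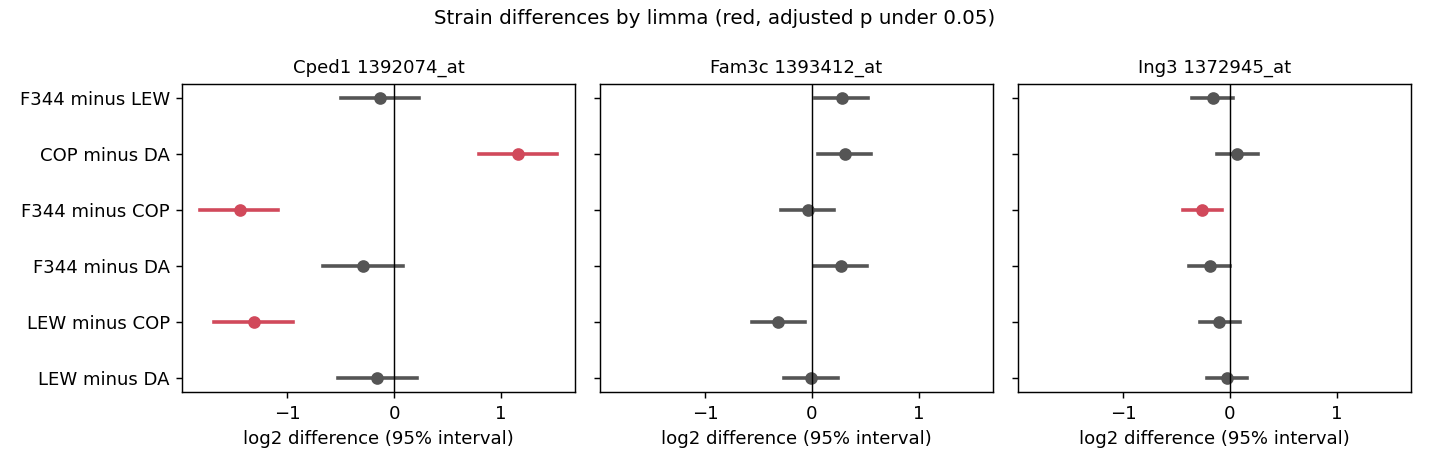
Log2 differences between strains (horizontal axis, first strain minus second) for the 6 pairs of strains (vertical axis) and the 3 probe sets above the filter level; points are limma estimates, bars 95% intervals, and red marks an adjusted p under 0.05. For Cped1 the 3 pairs with COP lie at -1.44, -1.31 and 1.16 and the other 3 include 0; of the Fam3c and Ing3 differences, 1 is red, at -0.26.

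Being higher in COP than in each other strain was a rare pattern. By the calls of limma it held for 1.70% of the probe sets tested. It held for 5 of the 606 chromosome 4 genes tested, or 0.825%. The first share counts probe sets and the second genes, so they cannot be set against each other. All COP arrays lay above all others in 2.45% of the probe sets tested. Ranked by the smallest of the 3 COP differences, Cped1 came in place 1 of these 606 genes and in place 4 of all 10548 genes tested, each gene taken by its probe set with the highest mean. These ranks describe Cped1, since it had been singled out with earlier results of these data known.

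Over the 16 arrays, the genes closest in pattern to Cped1 were Zfp597, a zinc finger gene, Serpinb10, a serine protease inhibitor of blood cells, Pilrb2l4, Harbi1, derived from a transposase, and Ermp1, a peptidase of the endoplasmic reticulum. Closeness was the root mean square difference of log2 signals after each probe set was centred on its own mean, and it was 0.257, 0.270, 0.270, 0.280 and 0.282 for these genes, where the signals of Cped1 itself had a root mean square deviation of 0.616 from their mean. Zfp597 had mean signals of 628 in COP and of 175, 218 and 246 in F344, LEW and DA. Serpinb10 had 7995 in COP against 3470, 3924 and 4743 in F344, LEW and DA. The search covered only probe sets above the filter with 1 gene symbol that was more than a locus number. The 5 lie on chromosomes 10, 13, 12, 3 and 1, so the list held no other chromosome 4 gene.

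**Figure D3:**
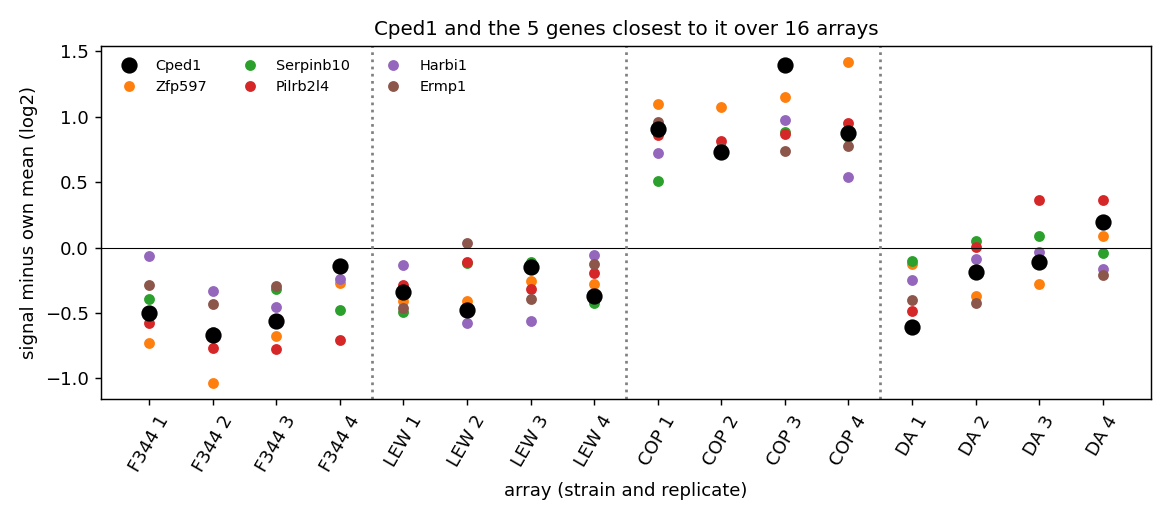
Log2 signal minus the mean of the same probe set (vertical axis) on each of 16 arrays (horizontal axis, strain and replicate) for Cped1 (black) and the 5 genes with the smallest root mean square difference from it (0.257 to 0.282, colours). On the COP arrays all points lie between 0.509 and 1.418; the genes were chosen for this likeness.

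Markers of 10 cell types were read on the same arrays, and the calls of some lists differed between COP and the other strains. The summed signal of 6 osteoblast genes, among them Col1a2, was 245011 to 309475, and that of 5 cartilage genes, among them Col2a1, 85473 to 124513. Of the bone markers, Sost, an osteocyte product, at a mean signal of 43.8, and the osteoclast gene Calcr, at 161, were below the filter level. For COP against F344, LEW and DA, limma called 0 of 6 osteoblast and 0 of 5 cartilage genes in each contrast. At an unadjusted p under 0.05 there were 1 osteoblast gene against F344 and 0 against LEW and DA, and 0 cartilage genes in all 3. Of 4 genes of periosteum and fibroblasts, Postn was called, higher in COP than in F344. Over all genes 21.0% were called between F344 and COP, 14.1% between LEW and COP and 12.2% between COP and DA.

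Adipocyte genes were lower in COP, with 3 of 4 called in each of the 3 contrasts and a summed signal of 9411 to 14430 in COP, 15761 to 16423 in F344, 14204 to 17122 in LEW and 15679 to 18090 in DA. Of 5 skeletal muscle genes, 3 were lower in COP than in F344, 3 lower than in DA, and limma called 0 against LEW (2 at an unadjusted p under 0.05). Both B lymphoid genes tested, Cd79b and Vpreb3, were higher in COP than in F344 and in DA, with median log2 differences of -1.46 as F344 minus COP and 0.87 as COP minus DA, while Vpreb3 was lower in COP than in LEW. Their sum was 5409 to 6319 in COP, 2027 to 2310 in F344, 6895 to 7237 in LEW and 2560 to 3977 in DA. Of 3 neutrophil genes, Camp was higher in COP than in each other strain, S100a8 passed against F344 and not against LEW or DA, and S100a9 passed in none of the 3. Of 4 erythroid genes, 2 were higher in COP than in F344, 3 lower than in LEW and 2 lower than in DA. Mepe, 1 of 3 osteocyte genes tested, was higher in COP than in F344 and in DA, and 1 of 3 osteoclast genes was lower in COP than in LEW. Within COP, replicate 3, with the highest Cped1 signal (891), had the highest adipocyte (14430) and muscle (182946) sums and the lowest periosteum (86010) and B lymphoid (5409) sums, and lay between the others in the remaining 6 lists. The part of these markers in the Cped1 difference was not tested. In a bulk sample, fewer cells of a type and less RNA per cell cannot be told apart.

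Wnt16 (1385275_at), the ligand of the segment, was dim. Its signals were 83.3, 113, 97.5 and 145 in F344, 190, 61.1, 175 and 122 in LEW, 113, 141, 115 and 218 in COP, and 165, 129, 170 and 228 in DA. All strains overlapped, F344 and DA only between 129 and 145, and 12 of the 16 arrays were below the filter level of 174. Its mean log2 signal stood at the 35.7th percentile of all probe sets, under the filter at the 40th, so it has no row in the main fit. Detection calls were not used here, so whether the transcript was present was not settled.

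In the order of Wnt16 strain means, DA had 173 ± 40.7, COP 147 ± 49.4, LEW 137 ± 58.3 and F344 110 ± 26.3 (SD, n = 4), and no neighbours in that order differed beyond their spread. The largest log2 difference was that of F344 minus DA, at -0.66, with an exact two-sided permutation p of 0.0571 (0.686 adjusted over the 12 tests of dim probe sets). The smallest p that 4 arrays against 4 allow is 0.0286. After adjustment over the 12 tests a single pair of strains could thus not pass, however far apart. For F344 minus LEW the difference was -0.23 (exact permutation p = 0.629, adjusted 0.754), and it moved to -0.57 without LEW replicate 2 and to -0.03 without LEW replicate 1. In a limma fit with no filter the standard error of a Wnt16 difference was 0.347, beside 0.176 for Cped1 in the main fit, and the F-test over strains gave an adjusted p of 0.529.

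Other genes of the Wnt pathway were counted from 4 lists. Of 22 ligands and R-spondins, 14 were on the array and 6 bright enough to test (Wnt1, Wnt2b, Wnt4, Wnt5b, Wnt9a and Rspo3). The limma F-test called 0 of these 6, with 0 at an unadjusted p under 0.05, where 32.9% of all 10548 genes were called. Of 13 receptors and coreceptors tested 6 were called, of 9 secreted or membrane inhibitors 2, and of 23 intracellular and nuclear members 3.

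Between F344 and LEW, where 14.5% of all genes were called, limma called 1 of 13 receptors, 1 of 9 inhibitors and 3 of 23 intracellular and nuclear members. Lgr6, a receptor for R-spondins, had mean signals of 307 in F344 and 196 in LEW, which is 0.68 on the log2 scale (limma adjusted p = 0.0226). Sfrp5, a secreted Wnt antagonist, was higher by 0.71 (limma adjusted p = 0.0468), a call lost under median centring and under quantile normalization. Tcf7 (0.63) and Wls (0.41), which carries Wnt ligands to the cell surface, were higher in F344 and Lef1 (-0.60) was lower; Tcf7 and Lef1 encode nuclear partners of beta-catenin. The median differences of the 4 lists were -0.07 for ligands, 0.06 for receptors, 0.11 for inhibitors and -0.02 for the rest, beside 0.01 for all genes. Of the cell type markers, limma called both B lymphoid genes (median -1.61), 3 of 4 erythroid and 1 of 3 neutrophil genes, all lower in F344. It also called 1 of 5 skeletal muscle genes, higher in F344, and no gene of the other cell type lists. The part of cell content in these Wnt pathway differences was not tested.

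Between COP and DA, where 12.2% of all genes were called, limma called 1 of the 13 receptors and 0 in the other 3 lists. Lrp4, which binds sclerostin, averaged 1315 in COP against 1969 in DA, a log2 difference of -0.57 (limma adjusted p = 0.00921). Lrp4 was also lower in COP than in F344 (0.78 as F344 minus COP, limma adjusted p = 3.80e-04). The same held against LEW (0.49 as LEW minus COP, limma adjusted p = 0.0208). Of the 13 receptors, 4 were called lower in COP than in F344 and 2 higher, where 21.0% of genes were called. Against LEW 1 was called lower in COP and 2 higher, where 14.1% of genes were called. Between COP and DA, by unadjusted p under 0.05, 0 ligands, 2 receptors, 1 inhibitor and 3 intracellular or nuclear members passed.

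Fam3c (1393412_at) signals were 4830, 4626, 4927 and 4977 in F344 and 5311, 5065, 4902 and 4637 in COP. In LEW they were 2833, 4329, 4353 and 4775, and in DA 4729, 3825, 4240 and 3418. F344 and COP were thus high and even, and LEW and DA lower and more spread, with overlap in every pair of strains. LEW replicate 1 was the lowest of all arrays.

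Strain means of Fam3c were 4979 ± 283 in COP, 4840 ± 155 in F344, 4073 ± 851 in LEW and 4053 ± 562 in DA (SD, n = 4). The F-test gave a limma adjusted p of 0.0635, so Fam3c was not called. F344 minus LEW was 0.28 on the log2 scale (95% interval 0.03 to 0.52, unadjusted p = 0.031, limma adjusted p = 0.139), and COP minus DA 0.31 (0.06 to 0.55, unadjusted p = 0.018, limma adjusted p = 0.103). F344 minus COP was -0.04 and LEW minus DA -0.01, with intervals of -0.29 to 0.21 and -0.26 to 0.24.

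The Fam3c calls depended on single arrays, LEW replicate 1 above all. Without that array the difference F344 minus LEW was 0.11 (limma adjusted p = 0.466), while the F-test passed with an adjusted p of 0.0187, as did COP minus DA (0.31, limma adjusted p = 0.0125) and F344 minus DA (0.27, limma adjusted p = 0.0237). Without LEW replicate 4, F344 minus LEW was 0.36 (limma adjusted p = 0.0471), LEW minus COP was -0.40 (limma adjusted p = 0.0274) and the F-test gave 0.0228; without DA replicate 1 the F-test gave 0.0328. On LEW replicate 1 the summed signals of erythroid (91708) and neutrophil (132692) markers were the highest of the LEW arrays, as were those of skeletal muscle (192455) and adipocyte (17122) markers. Those of osteocyte (26091) and osteoclast (70028) markers were the lowest, and the other 4 lists lay between. Their part in the Fam3c signal was not tested. Of 3 further FAM3 genes, all on the array, only Fam3a passed the filter, and the limma F-test did not call it (adjusted p = 0.127).

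Ing3 had 2 probe sets. Signals of 1372945_at were 1042, 1108, 1254 and 1290 in F344, 1237, 1201, 1405 and 1396 in LEW, 1301, 1434, 1282 and 1596 in COP, and 1347, 1414, 1275 and 1296 in DA. F344 was lowest in the mean, at 1173 ± 118, beside 1310 ± 106 in LEW, 1333 ± 61.5 in DA and 1403 ± 145 in COP (SD, n = 4), and all strains overlapped. The F-test did not call it (limma adjusted p = 0.129).

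F344 minus COP was the 1 contrast of Ing3 that passed, at -0.26 on the log2 scale (SE 0.0896, limma adjusted p = 0.0477), just under the threshold. It did not pass in 14 of 25 alternatives, with adjusted p-values over them of 0.0275 to 0.165. Neighbours in the order F344, LEW, DA, COP did not differ beyond their spread: F344 minus LEW was -0.16 (95% interval -0.35 to 0.03, limma adjusted p = 0.267), LEW minus DA -0.03 and COP minus DA 0.07. The dim probe set 1396667_at had 88.1, 97.6, 166 and 208 in F344, 207, 189, 174 and 120 in LEW, 181, 230, 151 and 181 in COP, and 129, 261, 223 and 181 in DA. Its mean was also lowest in F344, at 140 ± 56.9 against 173 ± 37.7, 186 ± 32.4 and 199 ± 56.6 in LEW, COP and DA (SD, n = 4). Its exact permutation p-values were 0.200 and above, and 0.686 and above after adjustment, which has the same limit as for Wnt16.

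Other ING proteins and NuA4/TIP60 subunits were counted as 1 list, which is not limited to partners of Ing3. Of the 19 tested, the F-test called 4, or 21.1%, below the 32.9% of all genes. Between F344 and LEW 1 of the 19 was called, where 14.5% of genes were: Ing4, which belongs to another acetyltransferase complex and was lower in F344 (-0.31, limma adjusted p = 0.0147). Between COP and DA, where 12.2% of genes were called, 2 of the 19 passed: Mbtd1 (0.40, limma adjusted p = 6.59e-04) and Dmap1 (0.41, limma adjusted p = 0.0452) were higher in COP, where 1 rise was left under median centring and under quantile normalization. The catalytic subunit Kat5 was not called (F-test adjusted p = 0.742).

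Of the 8 protein-coding genes on each side of the segment, 7 of 16 were on the array under their symbol, and 3 were bright enough to test. The F-test called 2 of these 3, Lsm8 and Ptprz1, where it called 32.9% of all genes. Kcnd2, Aass, Cadps2 and Tas2r118 had no probe set above the filter level, with signals of at most 122, 115, 98.1 and 59.9. Tspan12, next to Ing3 and a coreceptor of Frizzled, had strain means of 2594, 2603, 2497 and 2253 in F344, LEW, COP and DA and was not called (F-test adjusted p = 0.113). Lsm8, which takes part in splicing, was higher in COP than in DA (0.28, limma adjusted p = 0.00881). Ptprz1, a receptor phosphatase next to Fam3c, was higher in LEW than in COP (0.35, limma adjusted p = 0.0147), and its other probe set was below the filter. Between F344 and LEW limma called 0 of these 3 neighbours, with 0 at an unadjusted p under 0.05, where 14.5% of genes were called.

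**Figure D4:**
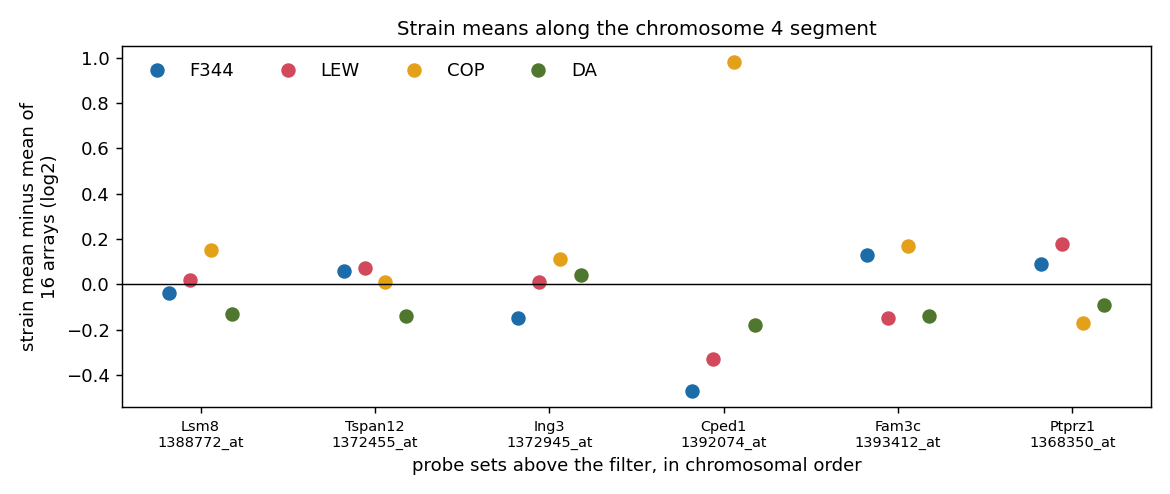
Mean log2 signal of each strain minus the mean of all 16 arrays (vertical axis) for the probe sets above the filter level, placed in chromosomal order (horizontal axis, order and not distance); colours are strains. COP lies 0.98 above the mean at Cped1; at the other 5 probe sets the strain means stay between -0.17 and 0.18.

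Arrays had medians of 303 to 325 over all probe sets, and their number limits the precision of these values. Arrays of one strain correlated with r of 0.977 to 0.989 across kept probe sets and arrays of different strains with 0.962 to 0.973, so no array was set apart from its label.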

How the data were processed

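The authors deposited linear intensity values from MAS5, a program that condenses each probe set into 1 signal; the program is credited to the submitters' processing notes, without a version. A 2% trimmed mean of 1000 on every array shows that they were already scaled. Detection calls and the array's genome build: not given in the sources used here. Of 31099 probe sets, 57 controls were left out, and 20826 had 1 symbol in the platform annotation. Signals under 1 were set to 1, log2 was taken, and probe sets under the 40th percentile of mean log2 signal were dropped, so that 18625 remained. With limma 3.58.1 (R 4.3.3), a mean for each strain was estimated from all 16 arrays (12 residual degrees of freedom, intensity trend), with two-sided p-values adjusted by Benjamini-Hochberg over all kept probe sets. Dim probe sets had exact permutation tests. The fit was tested on simulated data.

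Members and lists were chosen with earlier results of these data known. Genes were named by a rule: all probe sets of the 4 genes, up to 4 called members per list in F344 minus LEW or COP minus DA, all measured neighbours, the 5 genes closest to a member called by the F-test. Lrp4, Zfp597 and the others follow from it; Kat5, Fam3a, the cell type markers named and the genes given as examples of a list were picked after their values were seen. Gene order and promoters are RefSeq's for GRCr8. Figures used matplotlib 3.10.9. Alternatives were quantile normalization, median centring, a pseudocount of 19.3, testing every probe set, a stricter filter (60th percentile), no trend, array weights, a replicate block, 2 strains alone, and leaving out each array.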

Additional observations from a re-analysis of the deposited data

How the results depend on the processing

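With all arrays, 278 of 289 values were counted as unchanged. For a difference or a test this meant the same direction and side of the threshold. The 289 also held counts of probe sets called, which have neither and were all counted as unchanged. Between F344 and COP that count was 3699 in the main fit and 4555 with array weights. Counts from the gene lists were not among the 289, and some of them moved. For example, the chromosomal neighbours called higher in F344 than in COP went from 0 to 1 under quantile normalization and median centring. Cped1 kept its directions and calls in every alternative that gave a value, and the filter at the 60th percentile removed it. Fam3c passed the F-test under quantile normalization (adjusted p = 0.0484) and array weights (0.0419), and in fits of 2 strains alone for COP minus DA (0.31) and F344 minus DA (0.27); its difference LEW minus DA turned to 0.00 under median centring and 0.02 under array weights. Ing3 1372945_at F344 minus COP missed the threshold under quantile normalization (-0.24), median centring (-0.24), no filter (-0.26), no trend (-0.26) and with the 2 strains alone (-0.26). The cause was not tested.

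Leaving out 1 array gave, for Fam3c, 0.23 to 0.38 for COP minus DA, 0.19 to 0.34 for F344 minus DA, 0.11 to 0.36 for F344 minus LEW, -0.40 to -0.15 for LEW minus COP, -0.10 to 0.16 for LEW minus DA, and F-test adjusted p-values of 0.0187 to 0.113. For Ing3 1372945_at it gave -0.31 to -0.19 for F344 minus COP and -0.06 to 0.01 for LEW minus DA, for 1396667_at -0.25 to 0.08 for COP minus DA and -0.22 to 0.05 for LEW minus COP, and for Wnt16 -0.37 to 0.18 for LEW minus COP, -0.57 to -0.03 for F344 minus LEW, -0.63 to -0.09 for LEW minus DA, -0.54 to -0.19 for F344 minus COP and -0.47 to -0.12 for COP minus DA.

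The strains share replicate numbers 1 to 4, but correlations of same-numbered arrays, as deviations from strain means, were -0.173 to 0.088, with 0 of 24 over 0.1. In 12 of 48 pairs of an array and another strain, which offers 4 arrays, the array correlated best with its own number. For 0 of 16 arrays this held in every other strain. With the replicate block 2424 probe sets differed between F344 and LEW against 2567 without it, Cped1 kept its calls (COP minus DA adjusted p = 1.32e-04), and the block changed no call of Fam3c or the brighter Ing3 probe set; the dim probe sets were not run with it.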
